A study of Mus musculus with 20 samples.

Results

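The closed regions described here are 8319 stretches of the mouse genome that were open chromatin in embryonic stem cells (ESCs) of both genotypes and were called open in no culture differentiated from them. They were chosen by the peak calls alone. Peaks of 12 ATAC-seq libraries were merged into 193427 union regions, and a region was kept when it was called in 3 of 3 WT and 3 of 3 Mettl3-KO ESC libraries and in 0 of 3 WT and 0 of 3 Mettl3-KO libraries of cardiomyocyte cultures (CM). Of 74602 regions called in 6 of 6 ESC libraries, 11.2% met this rule. Over all 193427 union regions, its WT side (3 of 3 ESC WT and 0 of 3 CM WT) was met by 22155, or 11.5%. Its KO side was met by 18844 of the 193427, or 9.74%. These shares are the rule itself, so the loss of calls on differentiation is a description with no test.

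C57BL/6 cells of 4 groups were compared: ESC WT, ESC Mettl3-KO, and the cardiomyocyte cultures grown from each through embryoid bodies, written CM WT and CM KO. METTL3 is the catalytic subunit of the enzyme that writes N6-methyladenosine (m6A) on nascent RNA. Each group had 3 ATAC-seq libraries, in which a transposase cuts open DNA, and 1 library each of chromatin-bound RNA (ChrRNA-seq) and of its m6A positions (Chrm6A-seq). The sources used here do not give the deleted part of Mettl3, the number of clones, or whether replicate libraries stem from different cultures. P-values therefore measure the spread between libraries alone, and that spread may be technical.

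ATAC-seq lists held 107125 to 119307 intervals in ESC libraries and 70132 to 94617 in CM libraries. Mettl3 RNA, in reads per kilobase of gene and per 1e6 reads (RPKM), stood at 1.73 in WT and 1.28 in KO ESCs and at 1.18 and 1.07 in the WT and KO cultures. This does not check the labels, since values summed over the gene can miss the loss of a stretch of it. The m6A lists held 16983 positions in ESC WT and 18076 in ESC KO, and 25617 and 13962 in CM, so the list labelled ESC KO was not the shorter one. KO therefore stands here for libraries labelled so. The CM labels were checked against marker genes. The 9 cardiomyocyte markers summed to 8.10 RPKM in CM WT but to 0.827 in CM KO, below both ESC libraries (1.05 and 1.06), with Myh6 at 1.27 and 0.0322 RPKM. Fibroblast markers summed to 28.7 RPKM in CM WT and 8.52 in CM KO, and blood markers to 40.8 and 45.1. In CM KO 5 of the 9 (Actc1, Tnnt2, Myh6, Myh7 and Nkx2-5) stood above both ESC libraries, none above 0.103 RPKM, while Ttn made up most of the ESC sum in WT (0.641 RPKM). By these markers cardiomyocyte RNA was low in the CM KO library, and both CM cultures held RNA of other cell types. The part of this in the results below was not tested.

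An open region is a stretch free of nucleosomes where regulatory proteins can bind. Promoters, where transcription starts, and distal enhancers both show as ATAC-seq peaks. Many mouse promoters lie in CpG islands, stretches rich in the CpG dinucleotide that stay unmethylated and open in most cell types, whereas enhancers are commonly poor in CpG and open in few cell types. ESCs keep a network of enhancers bound by pluripotency factors, which is taken down when cells differentiate.

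The promoters among the closed regions were poor in CpG beside those open in all 12 libraries. Of their windows 3 are printed beside 1 that is open in all 12. Each runs from 250 bases before to 50 after a transcription start, 5′ to 3′ in the gene's direction, from RefSeq on GRCm38.p6, with each CpG in capitals. Tdgf1 encodes the NODAL co-receptor CRIPTO, Slc9b1 a sodium-proton exchanger, and Rdx radixin, which ties actin to the membrane. Rdx has 2 starts, and only the upstream one lay in a closed region. The Tdgf1 window is the naive pluripotency promoter among the closed regions. The closed region of Tdgf1 was weak, at a median percentile of 2.71, and a region open in all 12 lay under 1 kb away. The Slc9b1 window lay in the strongest closed region at a promoter of a gene with at least 1 RPKM in a library.
Tdgf1, closed, chr9:110946109-110946408, minus strand: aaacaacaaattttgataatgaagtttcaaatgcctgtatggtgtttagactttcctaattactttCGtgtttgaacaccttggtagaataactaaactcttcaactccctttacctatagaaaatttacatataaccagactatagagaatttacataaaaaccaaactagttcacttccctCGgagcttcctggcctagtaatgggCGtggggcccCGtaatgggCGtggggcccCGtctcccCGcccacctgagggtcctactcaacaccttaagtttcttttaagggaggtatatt
Slc9b1, closed, chr3:135347779-135348078, plus strand: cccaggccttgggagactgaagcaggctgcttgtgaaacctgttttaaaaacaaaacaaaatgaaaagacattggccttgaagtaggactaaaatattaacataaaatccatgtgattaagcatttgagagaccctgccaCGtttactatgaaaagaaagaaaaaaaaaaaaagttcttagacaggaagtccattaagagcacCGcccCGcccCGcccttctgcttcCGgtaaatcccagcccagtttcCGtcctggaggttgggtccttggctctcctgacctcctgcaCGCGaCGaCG
Rdx upstream start, closed, chr9:52046900-52047199, plus strand: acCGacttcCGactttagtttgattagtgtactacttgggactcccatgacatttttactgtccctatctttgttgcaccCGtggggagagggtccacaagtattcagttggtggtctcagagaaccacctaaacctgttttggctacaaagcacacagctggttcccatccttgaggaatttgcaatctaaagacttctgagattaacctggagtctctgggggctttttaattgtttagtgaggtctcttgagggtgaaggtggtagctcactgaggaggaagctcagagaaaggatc
Rdx downstream start, open in all 12 libraries, chr9:52047691-52047990, plus strand: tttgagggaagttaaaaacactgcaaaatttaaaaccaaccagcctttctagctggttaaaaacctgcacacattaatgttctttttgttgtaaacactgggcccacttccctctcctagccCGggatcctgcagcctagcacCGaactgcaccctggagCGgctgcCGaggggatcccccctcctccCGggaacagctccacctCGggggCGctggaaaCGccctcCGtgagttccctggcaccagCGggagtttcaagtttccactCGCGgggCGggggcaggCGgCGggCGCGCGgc
The windows of Tdgf1, Slc9b1 and upstream Rdx hold 7, 10 and 3 CpGs, and that of downstream Rdx holds 18. The median over all promoter windows is 7, so of the printed closed windows only that of upstream Rdx lies below it.

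The promoter windows as a whole showed the same contrast. A closed region overlapped 152 windows of 142 genes outside chromosome 18, which the promoter table does not cover, without a region open in all 12 libraries touching the same window. These windows had a median of 5 CpGs (quartiles 3 and 8), against 21 (14 and 29) in 14697 windows over regions open in all 12 libraries and 7 over all 32851 windows. At least 10 CpGs were held by 19.08%, 85.5% and 43.5% of them. The contrast was as large among weak peaks: among regions no stronger than the median closed region, windows over closed regions again had a median of 5 CpGs (103 windows) and windows over regions open in all 12 had 21 (1207 windows). Promoters are not replicates, so these are descriptions. Only 42.1% of the 152 windows belonged to protein-coding genes, against 85.1% of windows over regions open in all 12. Among the 64 windows of protein-coding genes were those of Gata1 (a blood transcription factor), Piwil4 and Gtsf1 (both of the germline piRNA pathway).

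**Figure D1:**
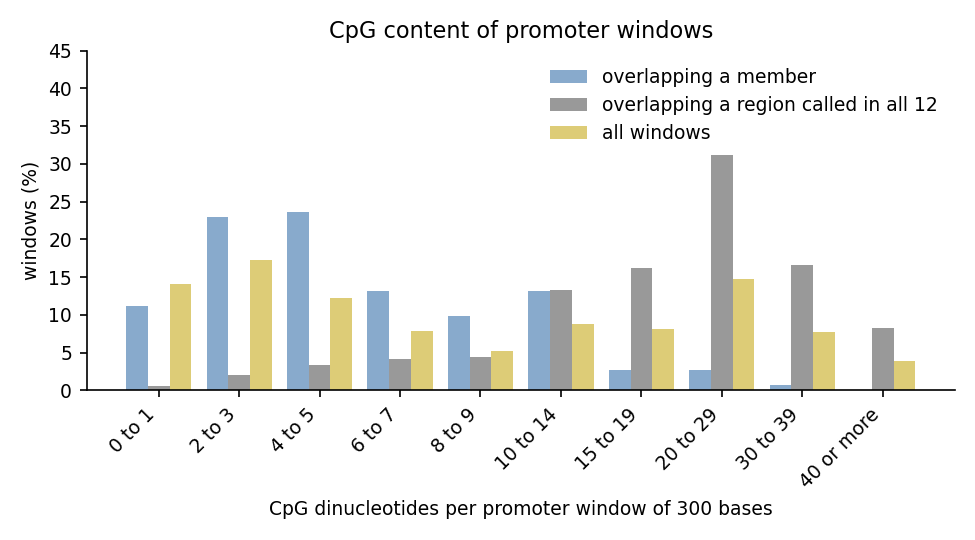
CpG dinucleotides per 300-base promoter window (x axis, in classes) against the share of windows (y axis, %), for 152 windows overlapping a closed region (members), 14697 overlapping a region called in all 12 libraries, and all 32851 windows. The windows over closed regions lie mostly under 10 CpGs (123 of 152), where the windows open in all 12 are few.

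The 9 short words searched stand for transcription factor motifs, and matches were counted on both strands of the windows, overlaps between words allowed. The TEAD word GGAATG stood in 22.4% (34 of 152) of windows over closed regions, against 11.5% of those open in all 12 and 14.7% of all windows. Among windows with under 10 CpGs the shares were 22.8%, 18.0% (open in all 12) and 17.6% (neither), and the 95% Clopper-Pearson interval of the first, 15.7 to 31.2, held both. The CTCF word AGGGGGC stood in 9.21% against 17.6% open in all 12, and at under 10 CpGs in 10.6% against 9.93% open in all 12 and 4.21% of windows over neither. The octamer word ATGCAAAT, read by OCT4, stood in 2 of the 152 windows (1.32%), and in 1.74% of all windows. The SOX word ACAATG stood in 9.21% against 12.6% of all windows. The ESRRB word AAGGTCA stood in 5.26% against 4.72%. The KLF word CCACACCC stood in 5.26% against 3.56%. The GATA word AGATAA had shares of 11.8% and 11.2%, the E-box word CACGTG 5.26% and 7.15%, and the AP-1 word TGANTCA, where N is any base, 7.24% and 7.81%. These shares describe letters in promoter windows only. Most closed regions lie elsewhere, and their sequence was not used here.

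The closed regions were weak peaks beside the other regions called in 6 of 6 ESC libraries. Within each ESC library's whole list their median percentile was 41.9 to 49.8, near the middle. Their median fold enrichment, the authors' height of a summit over the local background, was 5.40, 5.30 and 5.11 in the 3 ESC WT libraries and 4.73, 4.64 and 4.65 in the 3 ESC KO libraries. Over all regions called in 6 of 6 ESC libraries it was 7.20, 7.01 and 6.77 in WT and 6.62, 6.43 and 6.51 in KO. Closed regions were also narrow, with a median ESC interval of 275 bp against 414 bp for all ESC regions. ESC regions were cut into 10 equal classes by strength. Of the weakest class 23.9% were closed (95% interval 22.9 to 24.9), of the fifth 11.6%, and of the strongest 0.188%, which is 14 regions. The share called in all 12 libraries went the other way, from 24.5% to 93.6%.

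**Figure D2:**
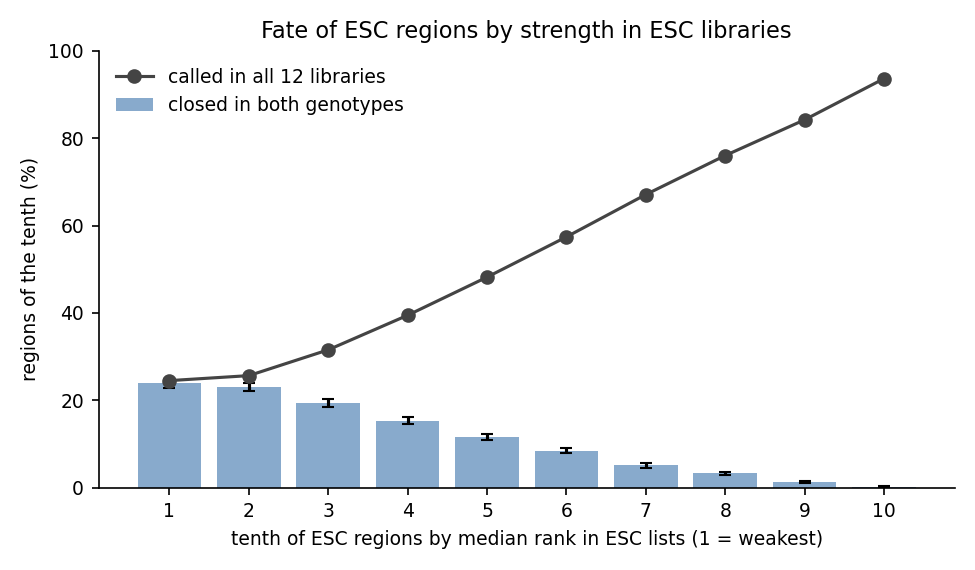
ESC regions in 10 equal classes by their median rank over the 6 ESC lists (x axis) against the share closed in both genotypes (bars, with 95% Clopper-Pearson intervals) and the share called in all 12 libraries (line), in percent. Closed regions go from 23.9% of the weakest class to 0.188% of the strongest.

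The number of closed regions depends on the length of the lists, which were shorter in CM. With the 70132 strongest intervals of every library, 2321 regions met the rule, or 4.79% of the regions then called in 6 of 6 ESC libraries. Of these, 1796 (77.4%) overlapped a closed region, and they were the 21.6% of closed regions that still had 6 of 6 ESC calls. A region without a call had no interval in that list, which does not show that it had no accessible DNA. At the edge of the rule, 5168 regions with 6 ESC calls and 1 CM call had a median fold of 5.16, and 5217 with 5 ESC calls and 0 CM calls a median of 4.29, against 4.996 for the closed regions.

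The choice of regions used calls, not heights, so the rank of the closed regions within each ESC list was compared between genotypes. The median percentile of fold enrichment was 49.8, 46.6 and 44.5 in ESC WT and 43.5, 41.9 and 44.0 in ESC KO. All 3 KO values lay below all 3 WT values (46.96 ± 2.64 and 43.13 ± 1.102, SD, n = 3; difference -3.83). The two-sided exact permutation p was 0.1, the smallest that 3 against 3 allows, so the difference cannot pass 0.05 in this design. Over all regions called in 6 of 6 ESC libraries the percentiles were 66.1 ± 1.84 and 66.6 ± 0.984 (SD, n = 3), with an exact permutation p of 0.8.

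Loss of calls was then scored in libraries that took no part in the choice. For each CM library, regions were chosen with the other 11 and the share that this library called was counted. CM WT libraries called 7.80%, 9.33% and 7.96% of them, and CM KO libraries 7.27%, 14.5% and 9.16%. In the order of replicate number both genotypes had their lowest share in replicate 1 and their highest in replicate 2. The groups overlapped (8.36 ± 0.841 and 10.3 ± 3.77, SD, n = 3; difference 1.96 percentage points, exact permutation p 0.7). CM KO replicate 2 stood apart, and it also called the largest share of all ESC regions, 76.1% against 70.7% to 73.2% in the other 5. Without it the rule kept 9733 regions and the difference was 2.47. The difference moved more without other CM libraries, to 5.44 and 4.68 without KO replicates 1 and 3 and to 0.144, 0.723 and 0.274 without WT replicates 1, 2 and 3. At equal numbers of intervals it was 7.05 with no overlap between the groups (exact permutation p 0.1, the smallest possible). ESC libraries scored the same way called 95.7%, 91.2% and 88.7% (WT) and 90.4%, 87.4% and 90.4% (KO) of regions closed by the other 11. Of all regions called in every other ESC library they called more, 98.6%, 97.2% and 96.3% (WT) and 97.6%, 96.9% and 97.7% (KO). On the closed regions the difference between genotypes was -2.43 percentage points, with an exact permutation p of 0.4. This difference turned to 1.76 without ESC WT replicate 1.

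**Figure D3:**
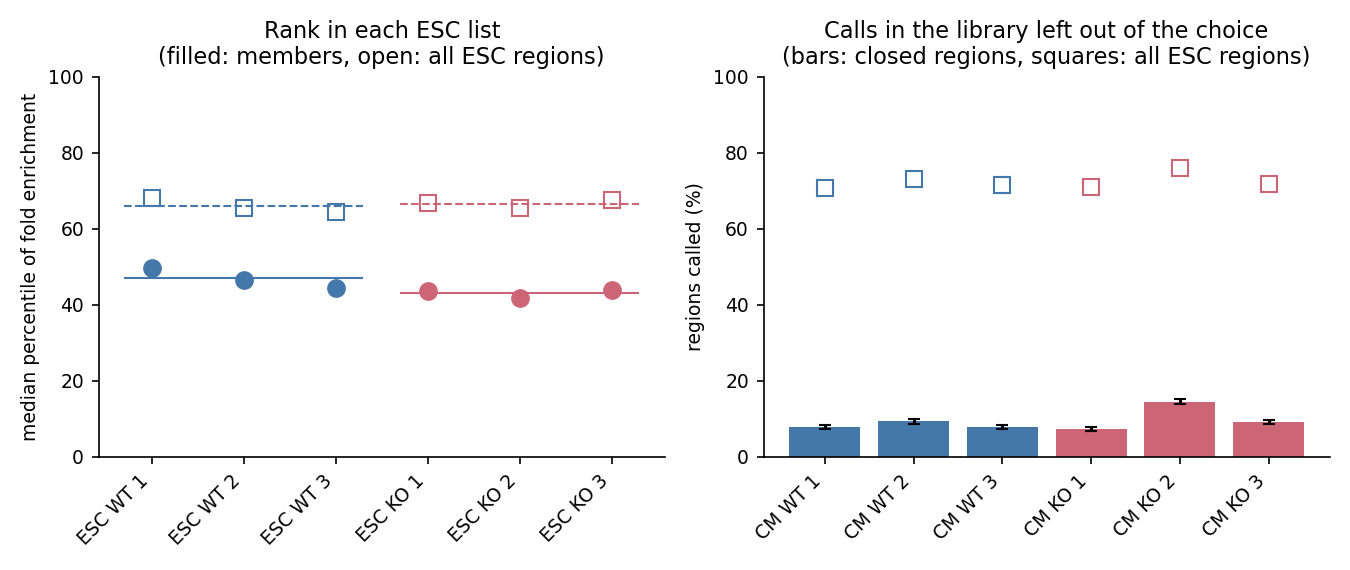
Left, median percentile of fold enrichment (y axis) in each ESC library of the closed regions (filled points; lines are group means) and of all regions called in 6 of 6 ESC libraries (open squares; dashed lines). Right, share of regions called (y axis, %) by each CM library among regions chosen without it (bars with 95% Clopper-Pearson intervals) and among all ESC regions (squares); CM KO 2, at 14.5%, is the highest bar.

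Most ESC regions without a WT call in CM also lacked all KO calls. Of 13730 ESC regions with no call in CM WT, 60.6% had no call in CM KO either, 21.2% had 1, 11.1% had 2 and 7.18% (986 regions) had all 3. Of 46255 with 3 of 3 CM WT calls, 88.4% had 3 of 3 CM KO calls and 1.58% (732) had none. The 986 regions that KO cultures kept were stronger in ESCs (median fold 6.05) than the 8319 closed in both (4.996), and the 732 closed in KO alone lay between (5.56).

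Closed regions seldom lay at gene starts. Of the 8319, 454 (5.46%, 4.98 to 5.97) lay within 1 kb of an end of a protein-coding gene, against 21.7% of all ESC regions and 33.5% of those open in all 12 libraries. The other ESC regions, weighted to the closed regions' mix of strengths, gave 19.9%. The gene table gives no strand, and where the promoter table gave it, 10178 ESC regions lay at gene starts and 2045 at the other end. Of those at starts 1.41% (1.19 to 1.66) were closed and 91.3% were open in all 12. Of those at the other end 9.24% (8.02 to 10.6) were closed and 52.2% were open in all 12. The closed share went on to 11.9% at 1 to 10 kb from a gene end, 12.8% at 10 to 50 kb and 16.4% (15.8 to 17.0) beyond 50 kb.

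**Figure D4:**
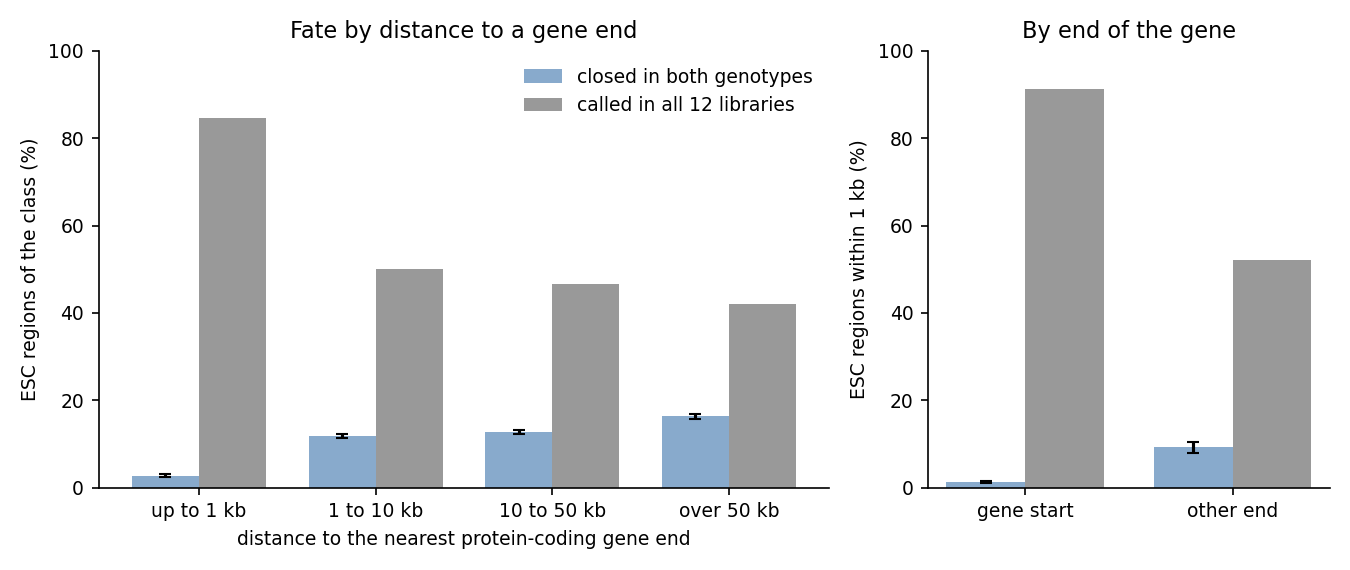
Left, ESC regions by distance to the nearest protein-coding gene end (x axis) against the share (y axis, %) closed in both genotypes (blue, with 95% Clopper-Pearson intervals) and called in all 12 libraries (grey). Right, the same for regions within 1 kb of gene starts and of the other ends; the closed share is 1.41% at starts and 9.24% at other ends.

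The median closed region lay 21.5 kb from a gene end, against 11.4 kb for all ESC regions and 6.53 kb for those open in all 12. Of the closed regions 51.5% (50.4 to 52.5) lay inside a protein-coding gene, mostly away from its ends, against 59.5% of all ESC regions. Beyond 50 kb lay 31.2% of the closed regions, and 16.6% of other ESC regions at the same strengths. The 986 regions that KO cultures kept gave 29.9% and the 732 closed in KO alone 28.4%, both near the share of the closed regions. Among chromosomes the closed share of ESC regions ran from 9.60% (chromosome 14) to 13.2% (chromosome 10), with 12.4% on X.

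The closed regions at gene ends lay beside a region open in all 12 libraries more often than the others did. Of the 454, 110 (24.2%, 20.4 to 28.4) lay within 1 kb of a region open in all 12 libraries, against 5.29% of those elsewhere, and their median percentile was 30.2 against 46. This share was not counted for all ESC regions at gene ends. Of ESC regions within 1 kb of a gene end 84.7% were themselves open in all 12, so the contrast may hold for any region there. Tdgf1 is one of the 110. Its closed region, at chr9:110946049-110946299 over the gene start, had folds of 2.64, 2.85 and 2.89 in ESC WT and 2.52, 2.62 and 2.84 in ESC KO, and a region open in all 12 began 160 bp away. When intervals up to 1 kb apart were merged, 6868 closed regions remained in the count and 4.27% lay at a gene end. That merging joins the Tdgf1 region to the region open in all 12 beside it, so it no longer counts as closed.

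Closed regions had closed neighbours about as often as other ESC regions did. Another closed region lay within 10 kb of 12.6% (1045) of them, and a closed region lay within 10 kb of 11.7% of all ESC regions. Among ESC regions within 10 kb of a closed one, 11.96% were closed themselves, against 12.9% from their strength alone, and 54.2% were open in all 12. Read along the chromosome, 75.7% of closed regions had an ESC region that was not closed as neighbour on both sides. There were 134 runs of 3 or more. The longest, of 5, lay at Dis3l2 (an exonuclease that degrades uridylated RNA) on chromosome 1 and in a stretch of 305 kb on chromosome 10 with no protein-coding gene. At Tenm3, a gene of neuronal cell adhesion, 4 closed regions stood within 8.01 kb. How many single regions and runs the closed share of ESC regions alone would give was not computed. The runs are therefore not shown to set the closed regions apart.

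The 10 strongest closed regions, by median percentile over the ESC libraries, stood at percentiles of 93.8 to 96.5. The first lay 24.0 kb from Nrep on chromosome 18, with folds of 18.1, 14.0 and 14.9 in ESC WT and 12.2, 13.2 and 14.9 in ESC KO. Another lay 11.4 kb from Rtl9 on X, with folds of 18.0, 14.8 and 17.3 in WT and 13.5, 13.4 and 12.3 in KO. In both regions every ESC library was above 12 fold. A further 7 lay inside Shroom4, Asic2, Abcc9 (a subunit of potassium channels of muscle), Marchf1 and Rexo5, 468 bp from Phactr1, and on chromosome 4 with the nearest protein-coding gene 414 kb away. None of the 9 outside chromosome 18 overlapped a promoter window of the table.

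Few regions near naive pluripotency genes were closed. In or within 20 kb of the 30 genes of the naive pluripotency list, 13 of 205 ESC regions were closed (6.34%, 3.42 to 10.6) and 121 (59.0%) were open in all 12 libraries, against 10.1% and 57.4% of the 58965 ESC regions in or within 20 kb of any protein-coding gene. The interval of the closed share holds that 10.1%. No gene of this list had more than the 2 closed regions of Esrrb, a receptor of the naive network, which had 21 ESC regions. Pou5f1 (OCT4), Zfp42, Nr5a2 and Dppa2 had 1 each, of 8, 7, 8 and 5, and Sox2 had 0 of 8. Yet the chromatin RNA of the list was lower in CM. Of 26 genes with at least 1 RPKM in either WT library all 26 stood lower in CM, 19 by 2-fold or more. Of 27 in KO 26 stood lower and 16 by 2-fold or more. Among all genes in the same filter 4060 of 5865 stood lower in WT and 2968 of 5558 in KO. By 2-fold or more it was 6.5% and 3.67% of all genes. With 1 library per group there is no test, and fewer cells of a type and less RNA per cell cannot be told apart.

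The formative list had 5 closed of 114 regions (4.39%), the FGF and ERK list 7 of 113 (6.19%) and the LIF, STAT3 and BMP list 7 of 86 (8.14%). Chromatin and DNA methylation genes had 23 of 212 (10.8%), and among them Chd7, a nucleosome remodeller, had 4 of 14 and Dnmt1, the maintenance methyltransferase, 3 of 15. Germline genes had 5 of 49 (10.2%), 3 of them near Prdm1, a germ cell regulator. Genes of the m6A machinery had 6 of 71 (8.45%), and cardiac transcription factors 3 of 54 (5.56%). The 6 ESC markers had 5 of 58 and the 9 cardiomyocyte markers 6 of 57, 3 of them in Ryr2, the cardiac calcium release channel. The 5 neural markers had 0 of 36. Higher shares on few regions stood at markers of fibroblasts (4 of 23, 17.4%), endoderm (3 of 17, 17.6%) and blood (2 of 11, 18.2%). Smooth muscle markers had 3 of 16 (18.75%) and endothelial markers 3 of 26 (11.5%). The intervals of these lists held the 10.1% of regions near any protein-coding gene, except that those of the formative list and the neural markers ended just below it, at 9.94% and 9.74%. The intervals cover counting error only, and regions are not replicates.

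WNT genes had the highest share among the 9 pathway lists, 23 of 145 (15.9%, 10.3 to 22.8, against 10.1% near any protein-coding gene), and 8 of the 23 lay in 1 gene. Gsk3b encodes the kinase that marks beta-catenin for breakdown, and its inhibition holds ESCs in the naive state. Of the 14 ESC regions in its body 8 were closed, spread over chr16:38115200-38191801, and 2 of the 15 within 20 kb were open in all 12. Their median folds ran from 3.89 to 5.11, and none was near a gene end (26.2 to 77.3 kb). Gsk3b RNA was not lower in CM: it stood at 1.21 (WT) and 1.35 (KO) RPKM in ESCs and at 1.93 and 2.06 in the cultures. Fzd5, a WNT receptor, had 3 closed of 5 regions, all under 3 kb from its ends with median folds of 2.75 to 3.20. These 3 were weak (median percentiles of 2.94 to 9.12) and lay close together, within chr1:64732192-64733754. Merging up to 1 kb apart would join them, so the 3 of 5 and the 23 of 145 count 1 short stretch as 3. Fzd5 RNA was 6.78 (WT) and 4.997 (KO) RPKM in ESCs and 3.36 and 3.49 in the cultures. Tcf7l1, a repressor of WNT targets in ESCs, had 3 of 22, and 1 of these, 19.3 kb away, had a median fold of 10.6.

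Long genes held the most closed regions. Macf1, which links actin and microtubules, had 9 of 33 ESC regions in its body closed, Auts2 8 of 37, Pde4d 8 of 39, Ankfn1 7 of 13, Fndc3b 7 of 19, Tenm3 7 of 23, Tenm4 7 of 28, Rbfox1 7 of 29 and Baz2b 6 of 16. Ankfn1 RNA was at or below 0.00342 RPKM in all 4 libraries, and none of its 13 regions was open in all 12. Macf1 RNA was 3.69 RPKM in ESC WT and 2.39 in CM WT, and 3.20 and 2.02 in KO. Of the 237 protein-coding genes with 3 or more closed regions in the body, 58 passed the filter of 1 RPKM in WT and 57 in KO. Their median log2 ratio of CM to ESC, on RPKM + 1, was -0.08 (-0.26 to 0.16) in WT and 0.18 (-0.10 to 0.34) in KO. Over all genes it was -0.25 and -0.04, and the intervals held these values. In WT 33 of 58 were below 0, in KO 23 of 57. At least 2-fold lower were 2 and 0 of them, where all genes gave 6.5% (381 of 5865) and 3.67% (204 of 5558). At least 2-fold higher were 3 and 2, where all genes gave 4.6% and 5.0%. The WT median turned positive (0.20) when libraries were scaled to a median of 0 over all genes and with 5 or more closed regions (0.37), and was 0.01 with no filter.

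Genes with a closed region at an end had median RNA ratios close to those of all genes. Of 480 such genes 386 had RPKM values, and 127 passed the filter in WT and 116 in KO. The median log2 ratio was -0.32 (-0.41 to -0.22) in WT and -0.03 (-0.15 to 0.04) in KO. At least 2-fold lower were 11 genes in WT (8.66%, against 6.5% of all genes) and 5 in KO (4.31%, against 3.67%), and 5 were at least 2-fold higher in each (3.94% and 4.31%, against 4.6% and 5.0% of all genes). Protein-coding genes with an ESC region but no closed one in the body had medians of -0.26 and -0.03, with 4.53% and 1.59% at least 2-fold lower. Below 0 were 94 of the 127 in WT and 65 of the 116 in KO, where all genes gave 4060 of 5865 and 2968 of 5558. Of 109 genes in the filter of both comparisons 58 were lower in both, 25 higher in both and 26 opposite. This joint count was not made over all genes, so it is not shown to set these genes apart.

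Tdgf1 had the lowest mean ratio of these genes, with 30.2 RPKM in WT and 22.1 in KO ESCs, and 3.41 in WT and 4.88 in KO cultures. Both CM libraries lay below both ESC libraries. Jam2, a junction adhesion molecule, stood at 4.01, 3.08, 0.270 and 0.434 RPKM in that order, and Ticrr, needed to start DNA replication, at 3.85, 3.58, 0.924 and 1.27. Rplp2 stood at 148, 184, 56.6 and 82.7 RPKM, and Rps9 and Rpl14, also ribosomal protein genes, were lower in both CM libraries too, with log2 ratios of -0.85 and -1.02 in WT and -0.75 and -0.58 in KO. For Rplp2, Ticrr, Txnip (which binds thioredoxin), Rps9 and Rpl14 the closed region lay at the other end of the gene, and the promoter window was open in all 12 libraries. Ssr2, a subunit of the translocon-associated complex, completes the 8 lowest.

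The closed regions also stood at genes with higher RNA in CM. Col1a1, a collagen chain made by fibroblasts, had 0.149 RPKM in WT and 0.174 in KO ESCs, and 15.5 and 4.34 in the WT and KO cultures. Its closed region had folds of 9.03, 8.16 and 8.999 in ESC WT and 6.96, 6.96 and 8.41 in ESC KO. Both CM libraries lay above both ESC libraries, as they did for fibroblast markers in sum. Hand1, a transcription factor of heart and extraembryonic cells, stood at 0.00869, 0.0433, 1.13 and 1.62 RPKM with a weak closed region (2.89 to 4.12 fold) 213 bp from an end. Tpm1, which encodes tropomyosin, had 2.06, 1.94, 7.03 and 5.96 RPKM and Rdx 1.94, 1.84, 4.67 and 5.23. The closed region of Tpm1 lay at the other end of the gene, and its promoter window was open in all 12 libraries. Which end held the closed region was not determined for Col1a1, Hand1, Jam2 and Ssr2, so these need not be closed promoters. Other list genes with a closed region at an end were Lifr, the LIF receptor (2.71, 2.56, 1.28 and 1.78 RPKM), Kdm4c (2.96, 1.501, 0.918 and 0.918), Hdac1 (2.10, 1.63, 1.11 and 0.936), Ttr and Myh11.

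**Figure D5:**
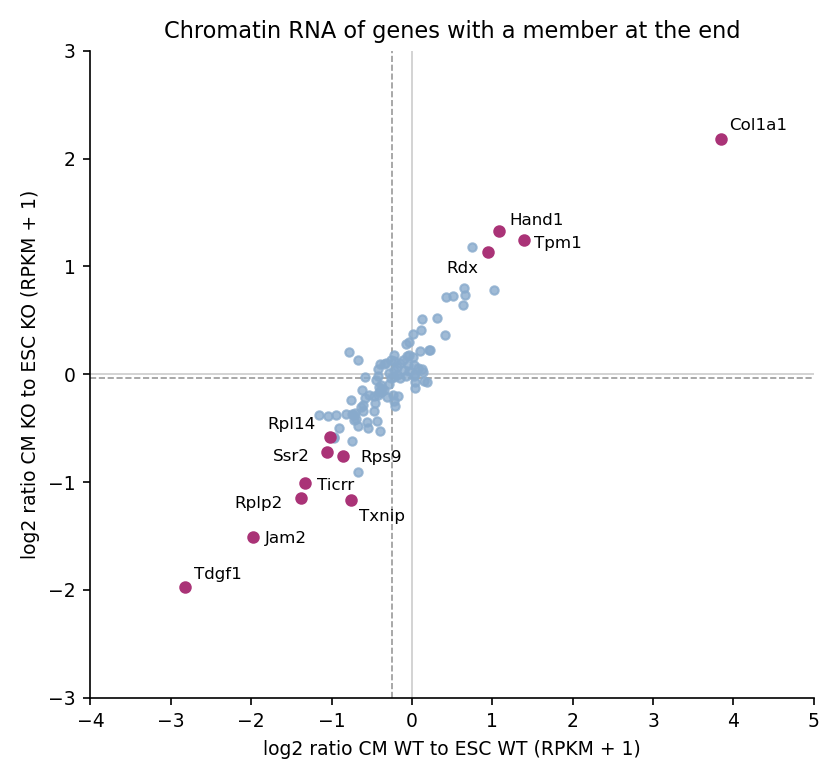
Log2 ratio of CM to ESC on RPKM + 1 in WT (x axis) and KO (y axis) for the 109 genes with a closed region at an end and at least 1 RPKM in both comparisons; dashed lines mark the medians of all genes (-0.25 and -0.04), and the 12 named genes are labelled. Most genes lie near the medians, with Tdgf1 lowest and Col1a1 highest.

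Few closed regions held an m6A position as placed here. The authors' Chrm6A-seq lists give a position within each gene. It was placed on the genome from the outermost RefSeq start with introns counted, so that places are approximate. Whether the lists count introns was not tested, and if they do not, positions beyond the first exon are misplaced and the shares below do not hold. Of 16983 ESC WT positions 12892 could be placed, and 13735 of 18076 in ESC KO. Of the closed regions 33 (0.397%, 0.273 to 0.557) held a position of the ESC WT list, against 1.33% of all ESC regions and 2.05% of those open in all 12. In the ESC KO list these shares were 0.433%, 1.75% and 2.81%, so the KO list did not lack positions here. Closed regions were also narrower (median merged width of 404 bp, against 581 and 736 bp). They lay less often inside a protein-coding gene (51.5%, against 59.5% and 64.9%). The shares were adjusted for neither, so they do not show a lack of m6A particular to closed regions. Protein-coding genes with 3 or more closed regions in the body were on the ESC WT list in 40.3% of cases (93 of 231) and those with an ESC region but no closed one in 33.7%, at median lengths of 287 and 21.1 kb.

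Closed regions overlapped 5 of 1005 miRNA hairpins listed by RefSeq. They were Mir26a-2, whose region also covers a promoter window of Ctdsp2 and had a median percentile of 43.2, Mir24-1 and the antisense Mir3074-1, which share 1 region, Mir326 and Mir7226. The regions of the last 4 were weak, at percentiles of 2.70 to 6.85. Levels of miRNAs were not measured.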

How the data were processed

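ATAC-seq, ChrRNA-seq and Chrm6A-seq of ESCs and CM were used, grouped by sample titles. Tools named in the submitters' processing notes were MACS2, Bowtie, HISAT2, Picard and cutadapt, without roles or parameters, and the build was mm10. Peaks were called per library in narrowPeak layout. The deposited columns hold a score, a fold enrichment (a ratio over local background) and the −log10 of p and q of each summit. These values are the authors' own and were used within a list only. The sources used here do not give read depths. The labels of CM KO replicate 3 name RNA as molecule, but its file is a peak list and was used as ATAC-seq. Summits of 1 interval counted once, the strongest kept, and intervals of 12 libraries sharing 1 bp were merged. The deposited ChrRNA-seq values are RPKM, 1 library per group. Log2 ratios took RPKM + 1 where either library of the pair reached 1 RPKM, with genes not listed taken as 0. For 22221 of 22332 identifiers (99.5%) a symbol was found. Positions in the deposited m6A lists were taken to count from the gene's 5′ end, introns included. Among 906 positions under 46 bases from a start, 385 showed the listed motif at that offset in RefSeq promoter windows. At 3 bases before, 22 showed it. So near the start, this check cannot tell whether the lists count introns.

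The regions and gene lists were chosen with earlier results of these data known. Named genes followed a fixed rule: closed regions at ends of list genes, the 10 strongest closed regions, the 10 genes with most closed regions, the 8 lowest and 4 highest genes by mean log2 ratio, and list genes with 3 or more. Of the 10 strongest closed regions 1 is not reported here. Other names (genes of promoter windows, runs and miRNAs) were chosen after their values were seen. Intervals of shares are 95% Clopper-Pearson and of medians binomial order statistics, and they cover counting error only. Exact permutation tests were two-sided. Region building was tested on simulated peaks. No genome was used, so motif words were searched in promoter windows and not over whole regions as planned. Python 3.11.15, scipy 1.17.1, pandas 2.3.3 and numpy 2.4.6 were used. Alternatives were peak thresholds, equal list lengths, merging rules, distances, RPKM settings, the replicate block and leaving out each library. Merging up to 1 kb apart was added after seeing the data.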

Additional observations from a re-analysis of the deposited data

How the results depend on the processing

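The number of closed regions stayed within 1.5 times of 8319 (6868 to 9733) under every alternative but the equal number of intervals, which gave 2321. That setting also gave 4.65% at a gene end and 3.96% within 10 kb of another closed region, and differences of 7.05, -4.81 and -5.62 (each with an exact permutation p of 0.1) for the CM shares, ESC shares and percentiles in place of 1.96, -2.43 and -3.83. The share at a gene end was 3.29% at 500 bp, 9.57% at 2 kb and 4.27% with merging up to 1 kb apart. The share near another closed region was 6.90% within 5 kb, 41.6% within 50 kb, 10.8% at a −log10 q of at least 5 and 9.14% with merging up to 1 kb apart. Leaving out 1 library gave counts of 8717 to 9733, CM differences of 0.144 to 5.44, percentile differences of -5.99 to -2.62, gene end shares of 5.35% to 5.68%, shares inside a gene of 51.3% to 52.0% and near another closed region of 13.1% to 14.9%. It gave ESC differences of -6.33 to 1.76, reversed without ESC WT replicate 1 alone. The share holding an ESC WT m6A position was 0.805% within 500 bp.

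For genes with a closed region at an end the WT median log2 ratio of -0.32 became -0.50 at a pseudocount of 0.1 RPKM, -0.033 with no filter and -0.072 after scaling. For genes with 3 or more it reversed from -0.08 to 0.20 after scaling and 0.37 with 5 or more, and was 0.01 with no filter. Scaling moved the median of all genes by 0.25 in WT.

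With the replicate block, a sign-flip test over 3 same-numbered pairs whose smallest p is 0.25, the p-values were 0.5 for the CM difference of 1.96, 0.5 for the ESC difference of -2.43 and 0.25 for the percentile difference of -3.83. Neither test can pass 0.05 in this design. Calls of same-numbered libraries did not deviate together over union regions (correlations of -0.0096 to 0.0044), so the numbers were not taken as pairs, although the CM shares ranked alike by number in both genotypes. Motifs over whole regions were not run. Fold and calls without read depth limit the comparison of ESC with CM libraries.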
